A study of Mus musculus with 4 samples.

Results

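Interferon-gamma inducible GTPases are large GTP-hydrolysing proteins that cells make in response to interferons. The 10 genes described here are 6 guanylate-binding proteins (Gbp2, Gbp3, Gbp5, Gbp6, Gbp7 and Gbp9) and 4 immunity-related GTPases (Irgm1, Irgm2, Igtp and Iigp1), out of 26776 named genes on the array. They were chosen by gene symbol, and 15 of the 56605 non-control probes carry one of these symbols. These genes and the gene lists below were chosen with earlier results of these data known. Comparisons with all genes are therefore descriptions only. In macrophages and other mouse cells, interferon-gamma binds its receptor, the kinases Jak1 and Jak2 carry the signal onward, and transcription factors such as Irf1 then act on the promoters of these genes. The guanylate-binding proteins gather on vacuoles that hold pathogens and on bacterial surfaces, and some of them assist inflammasome activation. Among the immunity-related GTPases of the mouse, Irgm1, Irgm2 and Igtp (Irgm3) are regulators that sit on the cell's own membranes, and Iigp1 (Irga6) is an effector that is loaded onto the vacuole. In the brain, microglia, macrophages and astrocytes are known to make such proteins when interferon reaches them.

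RNA came from the brainstem/cerebellum and the spinal cord of transgenic (Tg) mice, which the series title calls MSA Tg, and of wild-type (WT) mice, all aged 24 weeks and all of a mixed C57BL/6, 129 and C3H background. Each of the 4 groups (Tg brainstem/cerebellum, WT brainstem/cerebellum, Tg spinal cord and WT spinal cord) was measured on a single 1-colour Agilent array. Differences therefore lack replicates, and they are given without tests or p-values. The sources used here do not give the transgene or its promoter, and they leave out how many animals went into a sample. The sample titles carry the prefix PLP, which the labels do not explain, and the source label of the spinal cord samples reads brain while their tissue label reads spinal cord. In bulk tissue, fewer cells of a type and less RNA per cell cannot be told apart.

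A level is a processed signal in log2 units, less the 75th percentile of its array, so 0 marks that percentile. A difference is Tg minus WT in these log2 units unless stated otherwise, and a difference of 1 is a factor of 2. The 75th percentile lay at a signal of 458 on the Tg and 437 on the WT brainstem/cerebellum array, and at 410 on the Tg and 678 on the WT spinal cord array. Between 59.2% and 64.0% of spots per array were well above background and none was saturated. A second slide carried the WT spinal cord array alone, and the other 3 shared a slide, so slide and genotype cannot be told apart in spinal cord. Repeated spots within an array gave a technical SD of a difference of 0.10 at levels above 1, 0.12 from -1 to 1, 0.20 from -3 to -1 and 0.28 below -3. The last 3 values rest on 11, 14 and 9 pairs of probe and array, and none of them includes the spread between animals or between hybridisations. The tissue labels were checked against region markers. All 4 cerebellar marker genes that were above background on both arrays of a genotype were lower in spinal cord than in brainstem/cerebellum, with a median of -5.59 in Tg and -4.79 in WT mice. All 4 Hox genes of the spinal cord were above background on both spinal cord arrays, and 1 of 4 was so on each brainstem/cerebellum array. The region markers also differed between the spinal cord arrays. Tg minus WT, the 4 cerebellar markers measured there were all below 0, with a median of -0.81. The 4 Hox genes ran from -1.48 to 0.05, with 2 above 0 and 2 below. Over all genes, 46.6% were above 0 in spinal cord. The cause was not tested.

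The promoters are shown because 2 short letter patterns tied to interferon signalling are known from genes of this kind. The interferon-stimulated response element, read by interferon regulatory factors, was searched as GAAA, any 2 bases, GAAA. The gamma-activated site was searched as TTCNNNGAA. Both strands were searched from 250 bases before to 50 bases after each transcription start in RefSeq promoters of build GRCm38.p6. Promoters of 7 of the 10 genes were matched, and Gbp6, Gbp9 and Iigp1 are named only. The stretches below carry the response element letters in capitals with 35 bases on each side, read 5′ to 3′ along the gene. Gamma-activated letters that fall within the stretch are in capitals too. The windows are Gbp2 at chr3:142620569-142620648, Gbp3 at chr3:142559964-142560049, Gbp5 at chr3:142496734-142496813 and Gbp7 at chr3:142530248-142530327, all on the plus strand. Irgm1 lies on the minus strand at chr11:48871400-48871485, and Irgm2 at chr11:58214878-58214957 and Igtp at chr11:58199487-58199566 on the plus strand.
Gbp2: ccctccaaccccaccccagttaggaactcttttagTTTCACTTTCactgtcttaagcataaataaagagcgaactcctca
Gbp3: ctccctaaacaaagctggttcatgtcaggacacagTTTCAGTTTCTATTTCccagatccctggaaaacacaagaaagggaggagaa
Gbp5: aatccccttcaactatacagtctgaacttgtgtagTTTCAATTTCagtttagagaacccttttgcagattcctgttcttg
Gbp7: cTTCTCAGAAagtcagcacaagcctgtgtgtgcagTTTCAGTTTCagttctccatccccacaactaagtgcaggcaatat
Irgm1: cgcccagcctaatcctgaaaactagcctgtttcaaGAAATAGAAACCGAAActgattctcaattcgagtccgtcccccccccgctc
Irgm2: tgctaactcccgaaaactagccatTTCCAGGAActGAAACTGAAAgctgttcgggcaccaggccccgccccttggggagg
Igtp: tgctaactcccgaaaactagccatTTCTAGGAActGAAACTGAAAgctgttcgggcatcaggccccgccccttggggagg

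The response element letters were found in all 7 matched genes, in 7 of their 8 promoters, against 3.44% of all 32851 promoters in the table. The first match began between 30 and 64 bases before the start in 6 of the genes and 165 bases before it in Gbp5. Gbp3 and Irgm1 each hold a second match that overlaps the first, beginning 39 bases before the start in Gbp3 and 24 in Irgm1. The gamma-activated letters were found in 4 of the 7 genes (Gbp5, Gbp7, Irgm2 and Igtp), against 8.30% of all promoters, and these 4 hold both patterns, against 0.454%. In Irgm2 and Igtp the patterns lie side by side, and the printed windows of these neighbouring genes are identical at 78 of 80 bases. A match is a description of letters, not of a bound site.

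In brainstem/cerebellum, all 10 genes had a higher level on the Tg array than on the WT array, with differences between 0.06 (Gbp5) and 1.06 (Iigp1), where 38.6% of all genes had a difference above 0. Gbp2 and Iigp1 were at least 2-fold higher and none was 2-fold lower. That is 2 of 10 genes, against 2.66% of the 16800 genes above background on both arrays, while 0.304% of those genes were 2-fold lower. The median difference over the 10 genes was 0.83, against -0.07 over all genes, and 3.68% of all genes lay above 0.83. The central 95% of all genes lay between -0.58 and 1.03.

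In spinal cord, 8 of the 10 genes were higher on the Tg array, and Gbp5 and Gbp9 had a lower value there, where 46.6% of all genes had a difference above 0. Gbp2, Gbp3, Gbp7 and Irgm2 were at least 2-fold higher, which is 4 of 10 genes against 8.49% of 17086 genes. Gbp9 was at least 2-fold lower, against 6.38% of all genes. The median difference was 0.89, against -0.05 over all genes, with 9.93% of all genes above 0.89. All genes spread more widely than in brainstem/cerebellum, with a central 95% between -1.40 and 2.07, so a difference of the same size stands less far out here. Scaled on the spike-in probes, the median of all genes in spinal cord moved to -0.40 and that of the 10 genes to 0.53. With that scaling 1 of the 10 genes was at least 2-fold higher, against 5.33% of all genes.

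**Figure D1:**
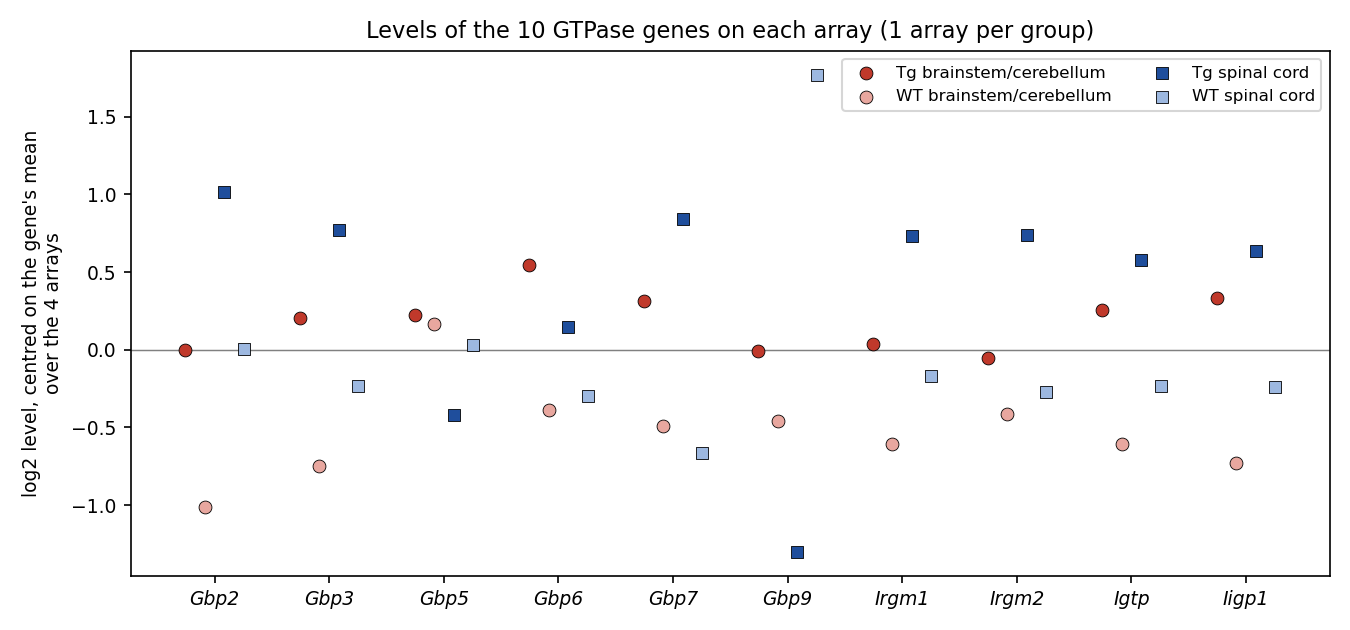
Level of the 10 GTPase genes in log2 units, centred on each gene's mean over the 4 arrays (y axis), with 1 point per array: circles for Tg and WT brainstem/cerebellum, squares for Tg and WT spinal cord. The Tg circle lies above the WT circle for all 10 genes, and for Gbp9 the WT spinal cord square lies highest, at 1.77, and the Tg spinal cord square lowest, at -1.30.

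Gbp2 and Gbp3 are guanylate-binding proteins of the gene cluster on chromosome 3, and act with other members on vacuoles that hold pathogens. The Gbp2 probe (chr3:142300719-142300778 in mm9, the build in which all probe positions are given) had a level of -0.53 on the Tg and -1.53 on the WT brainstem/cerebellum array, and of 0.49 on the Tg and -0.52 on the WT spinal cord array. This is a difference of 1.01 in both tissues, or 2.01-fold in each. It lay above 97.4% of all genes in brainstem/cerebellum and above 91.6% in spinal cord. The Gbp3 probe (chr3:142236072-142236131) had -0.47 on the Tg and -1.43 on the WT brainstem/cerebellum array, and 0.09 on the Tg and -0.91 on the WT spinal cord array. Its differences were 0.95 (1.94-fold) and 1.01 (2.01-fold). In this scaling the genes thus had almost the same difference from WT in both tissues. Scaled on the spike-in probes, brainstem/cerebellum and spinal cord gave 1.07 and 0.65 for Gbp2, and 1.02 and 0.65 for Gbp3. In both genes the spinal cord level was above the brainstem/cerebellum level of the same genotype.

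Gbp7, a guanylate-binding protein linked in mouse macrophages to oxidant defence, had the largest difference of the 10 genes in spinal cord. Its probe (chr3:142209379-142209438) had a level of -2.57 on the Tg and -3.37 on the WT brainstem/cerebellum array, a difference of 0.80 or 1.74-fold. On the spinal cord arrays its level was -2.04 in Tg and -3.55 in WT, a difference of 1.51 or 2.85-fold, above 95.4% of all genes. The probe is dim, and with normexp background correction and quantile normalization the spinal cord difference was 0.76. Gbp6, of the second Gbp cluster on chromosome 5, had -2.00 on the Tg and -2.94 on the WT brainstem/cerebellum array at its probe (chr5:105700081-105700140, minus strand), a difference of 0.93 or 1.91-fold. Its spinal cord levels were -2.40 on the Tg and -2.85 on the WT array, a difference of 0.44 or 1.36-fold. Over the settings of scaling and background correction, the spinal cord difference of Gbp6 ran from 0.09 to 0.44.

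Gbp5, which assists assembly of the Nlrp3 inflammasome in macrophages, was represented by a pair of probes that disagree. The brighter probe (chr3:142181426-142181485) had a level of -0.85 on the Tg and -0.91 on the WT brainstem/cerebellum array, a difference of 0.06. On the spinal cord arrays it had -1.49 for Tg and -1.05 for WT, a difference of -0.44, so WT was 1.36-fold above Tg. The dimmer probe (chr3:142184779-142184838) had -3.15 on the Tg and -3.07 on the WT brainstem/cerebellum array, a difference of -0.08. In spinal cord it had -2.24 on the Tg and -3.0 on the WT array, a difference of 0.76 or 1.69-fold. Gbp5 therefore has no settled direction in spinal cord, and its difference in brainstem/cerebellum lies within the technical error at both probes. With the mean of both probes the spinal cord difference was 0.16.

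Gbp9, also of the chromosome 5 cluster, departed from the other 9 genes. Its single probe has 60 bases that span 242 bases of the genome (chr5:105523238-105523479, minus strand), so its bases are not contiguous there, and it is shown because the value below rests on it alone.
Gbp9 probe: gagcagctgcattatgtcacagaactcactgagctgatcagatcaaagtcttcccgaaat
Its processed signal was 1748 on the Tg and 1219 on the WT brainstem/cerebellum array, and 639 on the Tg and 8892 on the WT spinal cord array. The WT spinal cord array thus stood far above the other 3, with a level of 3.71 against 0.64 on the Tg spinal cord array. The difference was -3.07 in spinal cord, with WT 8.40-fold above Tg, and 0.17% of all genes had a lower difference. In brainstem/cerebellum the level was 1.93 on the Tg and 1.48 on the WT array, a difference of 0.45 or 1.37-fold. The spot on the WT spinal cord array had a mean of 8487 and a median of 8507 over 39 pixels, with no saturated pixel and no outlier flag. The WT spinal cord array is the one on the second slide, and the part of the slide in this value was not tested.

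**Figure D2:**
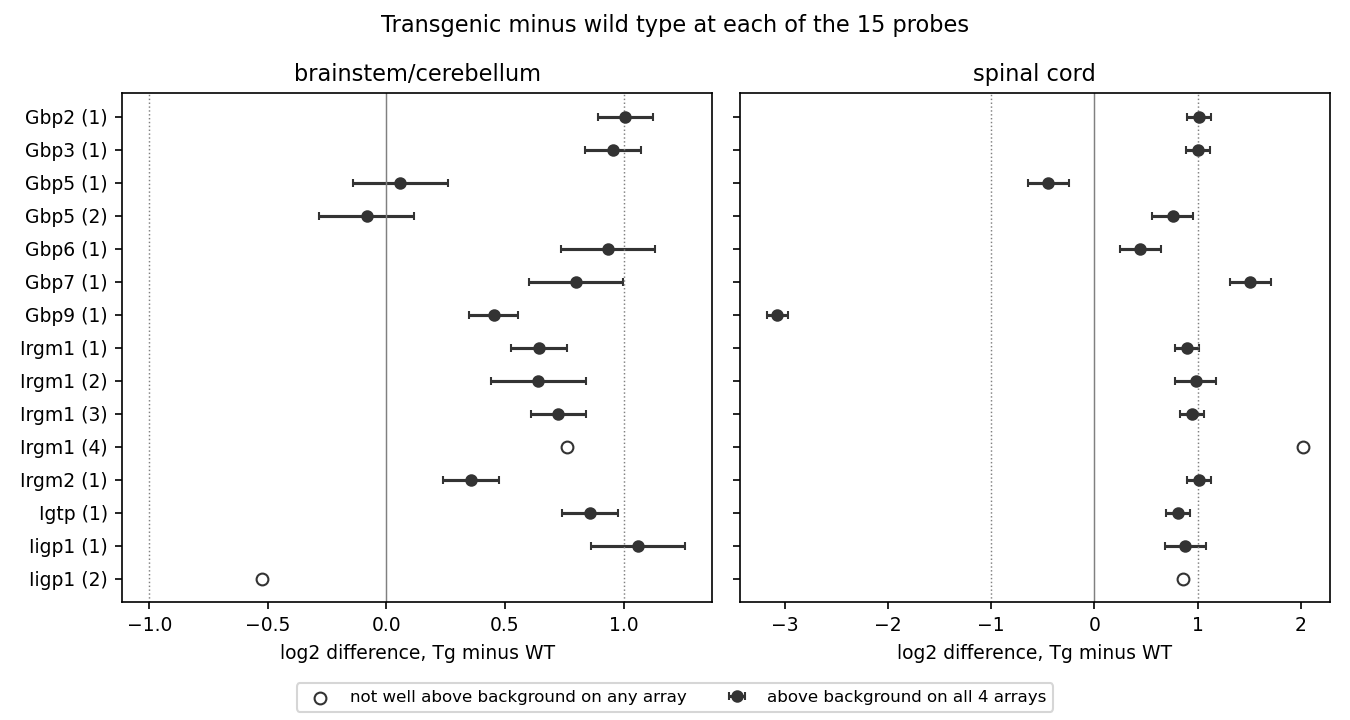
Difference in log2 units (Tg minus WT, x axis) at every probe of the 10 genes, by tissue, with bars for the technical SD of a difference, open circles for probes that are not well above background on any array, and dotted lines at a factor of 2. The 3 measured Irgm1 probes lie together, the Gbp5 pair lies apart in spinal cord at -0.44 and 0.76, and the Gbp9 probe lies at -3.07 in spinal cord.

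Of the regulatory immunity-related GTPases, Irgm1, which acts in autophagy and in restraining the effectors, had the most probes. Its brightest probe (chr11:48679069-48679128, minus strand) had a level of -0.03 on the Tg and -0.68 on the WT brainstem/cerebellum array, a difference of 0.64 or 1.56-fold. In spinal cord it had 0.66 on the Tg and -0.24 on the WT array, a difference of 0.90 or 1.86-fold. The other probes above background gave 0.64 and 0.72 in brainstem/cerebellum and 0.98 and 0.95 in spinal cord, so the 3 probes differed among themselves by less than 0.10. The fourth probe was not well above background on any array.

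Irgm2 and Igtp, neighbours on chromosome 11, keep the effector GTPases inactive on the cell's own membranes. Irgm2 (chr11:58036064-58036123) had a level of -0.36 on the Tg and -0.72 on the WT brainstem/cerebellum array, a difference of 0.36 or 1.28-fold. Its spinal cord levels were 0.43 on the Tg and -0.58 on the WT array, a difference of 1.01 or 2.02-fold. Its difference was thus smaller in brainstem/cerebellum than in spinal cord by 0.66, which was not tested. Igtp (chr11:58020927-58020986) had 0.48 on the Tg and -0.37 on the WT brainstem/cerebellum array, a difference of 0.86 or 1.81-fold. In spinal cord it had 0.81 on the Tg and 0.00 on the WT array, a difference of 0.81 or 1.75-fold. The difference of Igtp was therefore of nearly the same size in both tissues in this scaling. Scaled on the spike-in probes, it was 0.92 in brainstem/cerebellum and 0.45 in spinal cord.

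Iigp1, the effector of the set, which is loaded onto vacuoles and helps to break them, had the largest difference in brainstem/cerebellum. Its brighter probe (chr18:60552153-60552212) had a level of -0.71 on the Tg and -1.77 on the WT brainstem/cerebellum array, a difference of 1.06 or 2.09-fold. In spinal cord it had -0.40 on the Tg and -1.28 on the WT array, a difference of 0.88 or 1.84-fold. The second Iigp1 probe was not well above background on any array. Averaged with that dim probe, the brainstem/cerebellum difference of Iigp1 was 0.27.

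Several of these genes lie within the technical error of the 2-fold threshold. In spinal cord, Gbp2, Gbp3 and Irgm2 stood at 1.01 each, just inside it, and Irgm1 at 0.90 and Iigp1 at 0.88 just outside. In brainstem/cerebellum Gbp2 at 1.01 and Iigp1 at 1.06 were inside and Gbp3 at 0.95 and Gbp6 at 0.93 outside. The technical SD of a difference at the levels of Gbp2, Gbp3, Irgm2, Irgm1 and Iigp1 was 0.12 to 0.20, so which of them passed 2-fold is not settled by these arrays. At a threshold of 1.5-fold, 7 of 10 genes were higher in brainstem/cerebellum, against 6.23% of all genes, and 7 of 10 in spinal cord, against 16.2%. None was 3-fold higher in brainstem/cerebellum, where 0.935% of all genes were, nor in spinal cord, where 4.18% were.

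**Figure D3:**
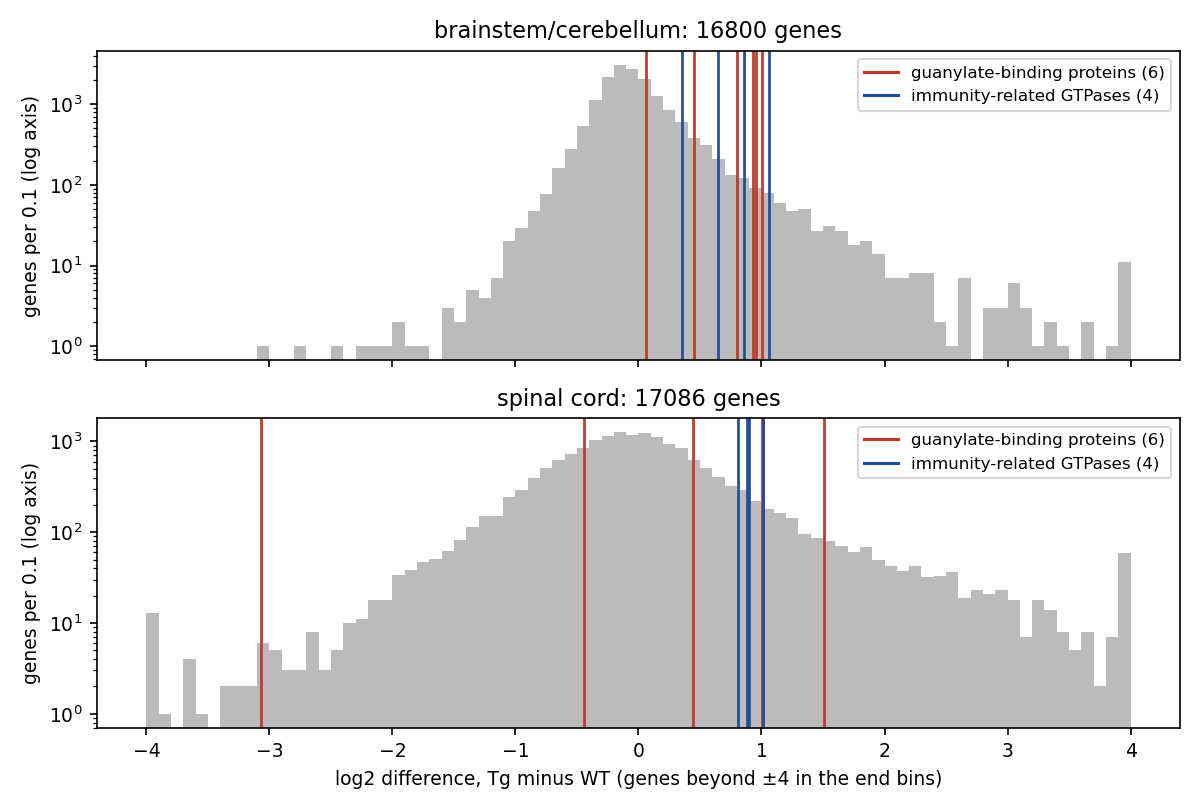
Number of genes (y axis, log scale) by difference in log2 units (Tg minus WT, x axis) among genes above background on both arrays, with red lines for the 6 guanylate-binding proteins and blue lines for the 4 immunity-related GTPases. In brainstem/cerebellum the lines lie from 0.06 to 1.06, and in the wider spinal cord distribution from -3.07 to 1.51.

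Between tissues, the 10 genes had a median difference, spinal cord minus brainstem/cerebellum, of 0.43 in Tg mice and 0.40 in WT mice, against -0.02 and -0.03 over all genes. In Tg mice Gbp2 passed 2-fold upward in spinal cord (1.02), and Gbp9 passed it downward (-1.29). That is 1 gene each way, where 10.1% of all genes were higher and 6.24% lower. In WT mice Gbp2 (1.01) and Gbp9 (2.23) were at least 2-fold higher, against 6.53% of all genes, and none was 2-fold lower, against 4.35%. Gbp2 had nearly the same tissue difference in both genotypes, and Gbp9 had opposite ones. Scaled on the spike-in probes, the tissue difference of Gbp2 was 0.66 in Tg and 1.08 in WT mice. The tissue difference of WT mice crosses the slides, and that of Tg mice lies within 1 slide. The signs of 4 genes were not stable. In Tg mice scaling on the spike-in probes gave -0.03 for Igtp and -0.05 for Iigp1, and the mean of probes gave 0.14 for Gbp5 against -0.64. In WT mice the mean of probes gave -0.41 for Iigp1 against 0.49, and Gbp6 ran from -0.02 to 0.16 over the settings.

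To describe which other genes follow the same course, levels were centred over the 4 arrays and set against the median course of the 10 genes. That course was 0.22 on the Tg and -0.55 on the WT brainstem/cerebellum array, and 0.68 on the Tg and -0.23 on the WT spinal cord array. Igtp lay nearest to it among the 10 genes, with a root mean square distance of 0.063, then Irgm1 at 0.10 and Gbp3 and Iigp1 at 0.11. Gbp5 at 0.67 and Gbp9 at 1.41 lay farthest away. Among 16339 genes above background on all 4 arrays, the nearest other than the 10 were Flt3l (0.064), 1700081N11Rik (0.064), 2810408I11Rik (0.065), 4930404N11Rik (0.066) and Zfp953 (0.066). With 4 arrays many genes can share a course, and nothing is read from these names.

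Of 16 other genes of the Gbp and immunity-related GTPase families, 15 had a probe. In brainstem/cerebellum 11 were above background on both arrays, with a median difference of 0.40, of which 1 was at least 2-fold higher, and a further gene passed 2-fold as a bound (Gm4951, named after its value was seen, at least 3.36-fold). In spinal cord 12 were above background on both arrays, with a median of -0.07 and 1 gene at least 2-fold lower (Gbp11). Over all genes, 2.66% were 2-fold higher and 0.304% lower in brainstem/cerebellum, and 8.49% and 6.38% in spinal cord. A bound is given where a probe is above background on 1 array only, the bright level against the lowest level well above background on the other array. Gbp2b, formerly called Gbp1, was above background on both Tg arrays and on neither WT array, and was at least 1.86-fold higher in Tg brainstem/cerebellum and at least 6.28-fold higher in Tg spinal cord. All bounds, here and in other paragraphs, hold for the main scaling only. The lowest difference of Gbp2b over the scalings was 0.49 in brainstem/cerebellum and 0.96 in spinal cord. Gvin1, a very large interferon-inducible GTPase, had differences of 1.13 in brainstem/cerebellum and 0.78 in spinal cord, and Gm12250 had 0.87 and 0.77. Gbp11 had -0.89 and -1.40, and Gbp8 had -0.56 and -0.81. Gbp11 is dim, with spinal cord levels of -3.92 on the Tg and -2.52 on the WT array. Over the scalings its spinal cord difference ran from -1.76 to -0.58. In spinal cord none of the 12 was 2-fold lower with normexp correction and 3 were with spike-in scaling, against 3.13% and 15.3% of all genes. The brainstem/cerebellum median of this list was 0.16 with normexp correction and quantile normalization. Its spinal cord median was 0.10 with normexp correction and -0.43 scaled on the spike-in probes, so its direction there is not settled.

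Several genes that carry or report interferon-gamma signalling were higher on the Tg arrays. Of 12 signalling genes, 10 were above background on both brainstem/cerebellum arrays, with 3 at least 2-fold higher, none 2-fold lower and a median of 0.37. A further gene (Ciita) passed 2-fold there as a bound. In spinal cord 8 of 11 were at least 2-fold higher and none 2-fold lower, with a median of 1.35. A difference above 0 was found for 10 of the 11, against 46.6% of all genes. The shares of all genes 2-fold higher and lower were 2.66% and 0.304% in brainstem/cerebellum, and 8.49% and 6.38% in spinal cord. Array-median scaling left 1 of 10 past 2-fold in brainstem/cerebellum, with a median of 0.21, and spike-in scaling left 5 of 11 in spinal cord. Socs3, a feedback inhibitor of cytokine signalling, had differences of 3.01 in brainstem/cerebellum and 4.44 in spinal cord. Irf1, a transcription factor that acts on GTPase promoters, had 0.53 and 1.35, and Irf8, a factor of myeloid cells, had 1.16 and 2.42. The receptor chain Ifngr1 had 0.22 and 1.43, and Nlrc5, the transactivator of class I antigen presentation, had 1.16 and 2.53. Ciita, its class II counterpart, was at least 5.03-fold higher in Tg brainstem/cerebellum and had a difference of 3.86 in spinal cord. Over the scalings, the lowest differences of Ciita were 0.87 and 2.25. Ifng itself, chosen after its values were seen, was not well above background on any of the 4 arrays.

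Most of the other genes known to be induced by interferon-gamma were also higher on the Tg arrays. Of 11 above background on both arrays, 6 in brainstem/cerebellum and 7 in spinal cord were at least 2-fold higher, against 2.66% and 8.49% of all genes. None of the 11 was 2-fold lower, against 0.304% and 6.38%, and the medians were 1.12 and 1.74. The difference was below 0 for 1 of the 11 in brainstem/cerebellum and for 3 in spinal cord. With normexp and quantile normalization 3 were at least 2-fold higher in brainstem/cerebellum, with a median of 0.65, and with spike-in scaling 1 was 2-fold lower in spinal cord. Cd74, the class II invariant chain, had differences of 4.42 in brainstem/cerebellum and 5.93 in spinal cord. The chemokine Cxcl10 had 3.39 and 2.92, the adhesion molecule Icam1 had 1.60 and 2.07, and the peptide transporter Tap1 had 1.12 and 1.91. Of the immunoproteasome subunits, Psmb8 had 1.31 and 1.89, Psmb9 had 0.96 and 1.74, and Psmb10, named after its values were seen, had -0.13 and -0.20. Cxcl9, chosen after its values were seen, was not well above background on any array.

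Type I interferons act through a receptor of their own and also raise several of these GTPases in mouse cells. Of 14 known targets of type I interferon, 10 of 13 were at least 2-fold higher in brainstem/cerebellum and 9 of 14 in spinal cord. The shares over all genes were 2.66% and 8.49%. None of the targets was 2-fold lower, against 0.304% and 6.38% of all genes, and their medians were 1.44 and 1.1. With normexp and quantile normalization 3 of 13 and 5 of 14 passed 2-fold, with medians of 0.94 and 0.82, and with spike-in scaling 5 of 14 passed it in spinal cord. In addition Mx1 was at least 4.31-fold higher in Tg brainstem/cerebellum, and it had a difference of 2.35 in spinal cord. Over the scalings, the lowest differences of Mx1 were 0.66 and 0.83. Ifi44 had 1.78 and 2.93, Oas1a, which makes the activator of RNase L, had 1.94 and 2.19, and Bst2 had 1.08 and 1.80. Mx2 had 1.21 and 1.79, and the RNA sensor Ifih1 had 0.76 and 1.25. Of 9 genes of the type I pathway itself, 7 were above background, with 1 in brainstem/cerebellum and 2 in spinal cord at least 2-fold higher, none 2-fold lower, and medians of 0.27 and 0.69. The brainstem/cerebellum median was 0.10 with array-median scaling, and the spinal cord median was 0.33 with spike-in scaling. Irf7 had 1.73 and 2.12, and Irf9 had 0.54 and 1.12. Ifnb1 and Ifna4, named on the same basis, were not well above background on any array.

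The 12 genes for autophagy and other partners of the GTPases on vacuoles showed no member past 2-fold in either tissue. Over all genes, 2.66% were 2-fold higher and 0.304% lower in brainstem/cerebellum, and 8.49% and 6.38% in spinal cord. The median difference of the 12 genes was -0.08 in brainstem/cerebellum and 0.14 in spinal cord, where it was -0.21 when scaled on the spike-in probes. Gabarapl2, which guides the GTPases to vacuoles in mouse cells, had -0.14 in brainstem/cerebellum and -0.55 in spinal cord. Map1lc3a had -0.28 and -0.49, Trim21 had -0.27 and 0.46, and Arhgdia had 0.12 and 0.35. The autophagy receptor gene Sqstm1 had -0.07 and 0.24, and Atg16l1 had -0.09 and -0.21. Other probes above background on all arrays gave -0.11 to 0.56 and -0.41 to -0.18 for Gabarapl2. They gave -0.04 to 0.32 and -0.12 to 0.43 for Sqstm1, and 0.23 to 0.33 and -0.66 to -0.26 for Atg16l1.

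Of 8 inflammasome genes that act beside or after the guanylate-binding proteins, 3 of 5 were at least 2-fold higher in brainstem/cerebellum and 6 of 7 in spinal cord, none of them 2-fold lower, with medians of 1.14 and 1.98. Over all genes, 2.66% and 8.49% were 2-fold higher, and 0.304% and 6.38% lower. With normexp and quantile normalization 1 of 5 and 5 of 7 passed 2-fold, with medians of 0.64 and 1.08, and with array-median scaling 1 of 5 passed it in brainstem/cerebellum. Casp4, the sensor of cytosolic lipopolysaccharide, had differences of 2.30 in brainstem/cerebellum and 3.57 in spinal cord. Gsdmd, which forms the pore, had 1.14 and 1.98, the adaptor Pycard had 1.14 and 1.77, and Casp1 had 0.51 and 1.09. Il1b was at least 2.45-fold higher in Tg brainstem/cerebellum and had 2.67 in spinal cord. Over the scalings, the lowest differences of Il1b were 0.43 and 1.08. Of the brainstem/cerebellum arrays, Aim2 was above background on the Tg array only, where it was at least 1.07-fold higher than on the WT array, and had a difference of 2.37 in spinal cord. Il18 had -0.00 and -0.21. Nlrp3 was above background on the WT spinal cord array alone of the 4, and was at least 2.42-fold lower in Tg spinal cord. Over the scalings, the spinal cord difference of Nlrp3 ran from -1.66 to -0.33. The lowest differences of Aim2 were 0.06 in brainstem/cerebellum and 0.85 in spinal cord.

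**Figure D4:**
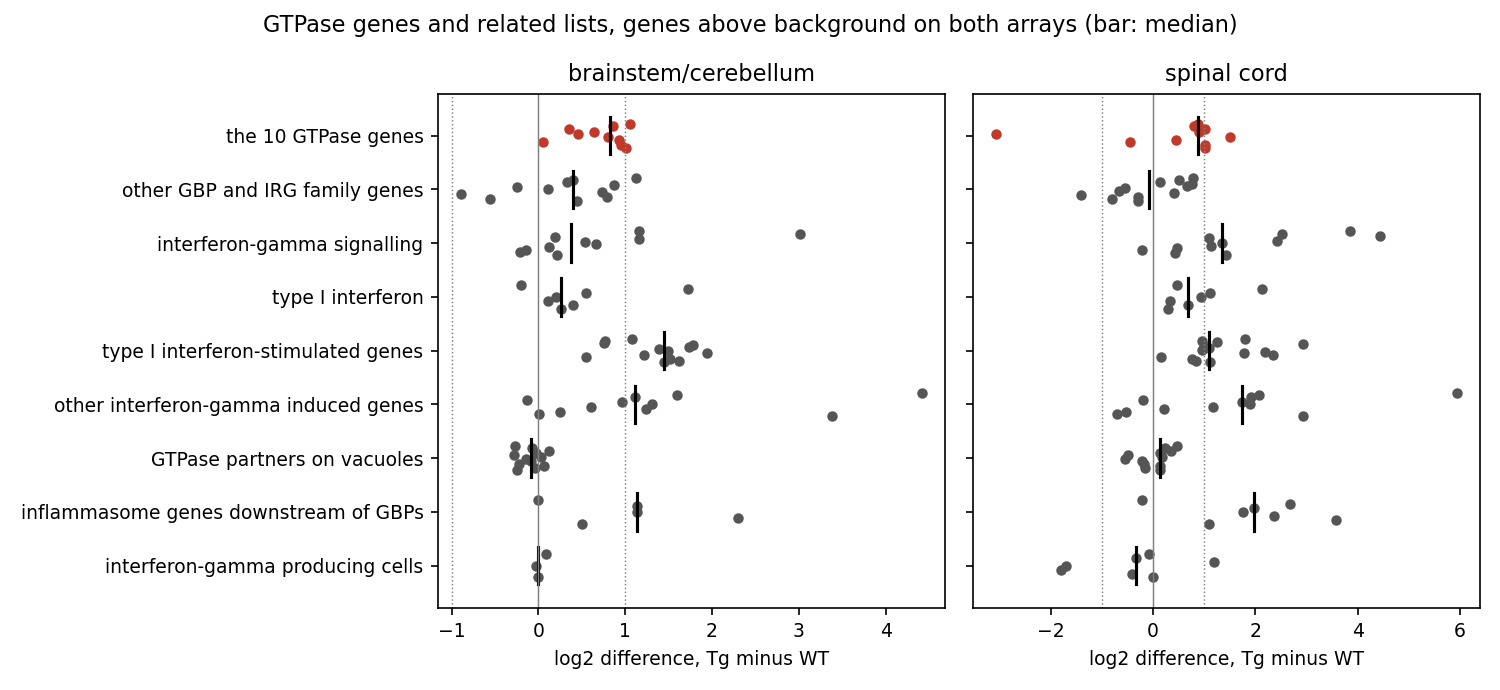
Difference in log2 units (Tg minus WT, x axis) of the genes of each list that were above background on both arrays, 1 point per gene, by tissue, with a bar at the median. The type I targets and the other interferon-gamma induced genes have medians of 1.44 and 1.12 in brainstem/cerebellum, against 0.83 for the 10 GTPase genes and -0.08 for the vacuole partners.

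The summed level of the microglia and macrophage markers was higher on the Tg array in both tissues. All 8 microglia and macrophage markers were above background on all arrays. In brainstem/cerebellum their summed level, on the linear scale relative to the 75th percentile, was 71.0 on the Tg and 50.9 on the WT array, with a median difference of 0.63 and 1 marker at least 2-fold higher. In spinal cord the sum was 163 on the Tg and 88.1 on the WT array, with a median difference of 1.06 and 4 markers at least 2-fold higher. Array-median scaling gave a brainstem/cerebellum median of 0.47 with none past 2-fold. Spike-in scaling gave a spinal cord median of 0.70, with 4 markers 2-fold higher and 1 lower. With that scaling 5.33% of all genes were 2-fold higher and 15.3% lower in spinal cord. Over all genes, 2.66% were 2-fold higher in brainstem/cerebellum and 8.49% in spinal cord. The difference was above 0 for 7 of 8 markers in brainstem/cerebellum, against 38.6% of all genes, and for 5 of 8 in spinal cord, against 46.6%. The sum is weighted to the brightest markers. In spinal cord P2ry12 had -0.23 and Itgam -0.28. A second probe gave 0.25 against 1.52 for Csf1r and 2.04 against 1.86 for Cx3cr1 there. These genes were named after their values were seen. The probes of Ptprc, named after its values were seen, disagreed: the brightest gave -0.51 in brainstem/cerebellum and -0.85 in spinal cord, and the others 0.75 to 1.25 and 2.04 to 2.50. The part of these cells in the GTPase differences was not tested. The summed level of the 6 astrocyte markers was higher on the Tg arrays too. It was 62.6 against 46.9 on the WT array in brainstem/cerebellum, and 104 against 64.4 in spinal cord. Gfap (1.43) and Gja1 (1.95) passed 2-fold upward in brainstem/cerebellum. Gfap (1.08) passed it upward in spinal cord and Gja1 (-1.81) downward. Both were named after their values were seen. Other probes gave 0.81 and 0.40 for Gfap, and -0.28 to 0.50 and -0.43 to -0.41 for Gja1. The astrocyte medians were 0.20 in brainstem/cerebellum and 0.34 in spinal cord, where spike-in scaling gave -0.02 with none 2-fold higher. The endothelial markers had -0.08 and -0.37, the neuron markers -0.12 and -0.41, and the oligodendrocyte markers 0.04 and 0.18. The oligodendrocyte medians were -0.12 in brainstem/cerebellum with array-median scaling and -0.17 in spinal cord with spike-in scaling.

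T cells and natural killer cells are known to release interferon-gamma. Of 15 genes of these cells, 5 were above background on the Tg and 4 on the WT brainstem/cerebellum array, and 10 on the Tg and 8 on the WT spinal cord array. Of them, 3 were above background on both brainstem/cerebellum arrays, with none past 2-fold and a median of -0.01 (0.06 with spike-in scaling), and Prf1, named after its value was seen, was at least 3.26-fold higher in Tg brainstem/cerebellum. In spinal cord 7 were, with 1 at least 2-fold higher (Nkg7, 1.2), 2 lower (Cd4, -1.80, and Klrb1c, -1.69) and a median of -0.34. Cd4 and Klrb1c have 3 probes each, and no other probe of either was above background on all 4 arrays. Over the scalings, Nkg7 ran from 0.23 to 1.22. With normexp or spike-in scaling none was 2-fold higher in spinal cord, and the median was -0.17 and -0.69. Over all genes, 2.66% were 2-fold higher and 0.304% lower in brainstem/cerebellum, and 8.49% and 6.38% in spinal cord. Il2rb was at least 3.58-fold, Cd3g at least 2.62-fold and Tbx21, named after its value was seen, at least 1.81-fold higher in Tg spinal cord, and Cd8b1 was at least 1.44-fold lower there. Over the scalings, the lowest spinal cord differences were 0.44 for Il2rb and 0.35 for Cd3g, and Cd8b1 ran from -1.35 to -0.15. Klrb1c stood at a level of 2.75 on the Tg and 4.45 on the WT spinal cord array, and the WT spinal cord array was the brightest of the 4 for it, as it was for Gbp9. Cd8a, Ncr1, Klrk1 and Gzmb, chosen after their values were seen, were not well above background on any array.

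**Figure D5:**
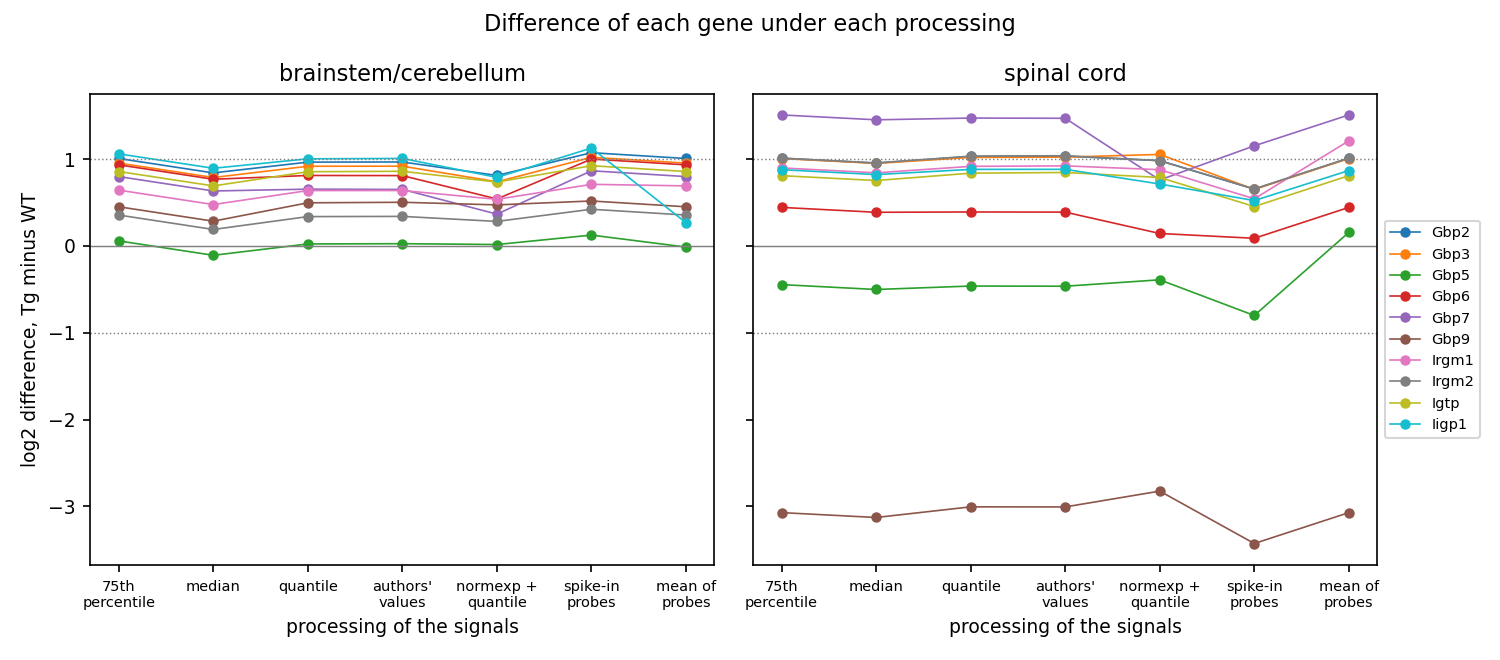
Difference in log2 units (Tg minus WT, y axis) of each of the 10 GTPase genes under each processing of the signals (x axis), by tissue, with 1 line per gene and dotted lines at a factor of 2. Gbp5 crosses 0 in both tissues, Gbp9 stays between -3.43 and -2.82 in spinal cord and above 0 in brainstem/cerebellum, and the other 8 genes stay above 0 in both tissues.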

How the data were processed

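Total RNA of 4 mouse samples was amplified with a low-input kit, labelled with Cy3 and hybridised to 1-colour Agilent arrays, 1 per group, per the labels' protocols. Groups came from the genotype and tissue labels. The deposited scanner files hold spot intensities that Agilent Feature Extraction had background-subtracted and detrended, with no scaling between arrays, per the file headers. The headers give version 10.7.1.1 and the submitters' processing notes 9.5.1.1. The authors' series table also holds intensities. The sources used here do not give its normalization. Every column had a median of 30.4 and followed a quantile normalization computed here, and it served as an alternative.

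From these, processed signals were put in log2 units and each array's 75th percentile was subtracted, without control and outlier spots (63 to 134 per array). Each gene was represented by its brightest probe, judged by the mean over all arrays. Genes were named by accession (32994 probes), symbol (10212), synonym (514) or the file's symbol (2127), and 10758 probes stayed unnamed. All probes of the 10 genes are reported, with up to 6 members of each longer list (largest spinal cord difference, or bound) and all members of gene lists of 8 or fewer, while marker lists are given by counts, sums and medians. Genes outside that rule are marked as chosen after their values were seen. A gene of the signalling list is not reported here by name. Members and lists were chosen with earlier results of these data known. Counts over genes use probes well above background on both arrays. The script was tested on simulated data. R 4.3.3, limma 3.58.1 and Python 3.11.15 were used. No block for the slide can be fitted with 1 array per group, and exon or untranslated positions of probes were not analysed here.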

Additional observations from a re-analysis of the deposited data

Results flagged for a closer look

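In 7 of the genes that the naming rule takes in, above background on all 4 arrays, the difference between Tg and WT had opposite signs in the tissues, and none of these differences between tissues was tested. Further list members with opposite signs, outside that rule, are not listed. In each, the value is the spinal cord difference minus the brainstem/cerebellum difference, in log2 units, and it crosses from 1 slide to another. Among the GTPases it was -3.52 for Gbp9 and -0.50 for Gbp5, and the second Gbp5 probe gave 0.84. Gbp9 was brightest on the WT spinal cord array, on the second slide. Among related genes it was -0.78 for Tgtp2, another immunity-related GTPase, 0.73 for Trim21, 0.67 for Irf3, 0.31 for Sqstm1 and -1.79 for Klrb1c. For Sqstm1 the value rests on 0.24 in spinal cord and -0.07 in brainstem/cerebellum, against a technical SD of 0.10. The brainstem/cerebellum difference was 0.09 for Klrb1c and 0.11 for Tgtp2. Over the scalings it ran from -0.08 to 0.21 for Klrb1c and from -0.06 to 0.17 for Tgtp2. The opposite signs of these genes are therefore not settled.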

How the results depend on the processing

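No count or median over the 10 GTPases changed direction under the alternatives run, while medians of some other gene lists and marker lists did, as stated beside them. In brainstem/cerebellum, 2 of the 10 GTPases were at least 2-fold higher. That count was 0 with scaling on the array median or with normexp and quantile normalization, 1 with quantile normalization, the authors' values or the mean of probes, 4 with the spike-in probes, and 7 at 1.5-fold and 0 at 3-fold. Over all genes, the share was 1.93% with the array median, 1.12% with normexp and 2.26% with quantile normalization. It was 2.28% with the authors' values and 3.01% with the spike-in probes. Shares at 1.5-fold and 3-fold are given above. In spinal cord the count of 4 was 1 with the array median, the spike-in probes or normexp, 7 at 1.5-fold and 0 at 3-fold. Over all genes, the spinal cord share was 7.92% with the array median, 5.33% with the spike-in probes and 5.38% with normexp. A count of 1 of 10 lies near those shares. The median over the genes was 0.54 in brainstem/cerebellum with normexp, against 0.83, and 0.53 in spinal cord with the spike-in probes, against 0.89. Causes were not tested. The other medians and counts over the 10 GTPases stayed within the spread or within 1.5 times. Of the values for single genes, 46 moved and 274 did not, and of the Tg minus WT differences only that of Gbp5 changed sign. Both filter settings repeat the main values, since all 10 genes were above background on every array. The mean of probes likewise repeats them for genes with a single probe. The 274 include these values, which could not move. Leaving out Gbp9, chosen after seeing the data, gave 0.86 in brainstem/cerebellum and 0.90 in spinal cord.

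No paired analysis was possible because each group has 1 array, and for the same reason no replicate was left out. The slide and genotype cannot be told apart in spinal cord. Dim probes (Gbp5, Gbp6 and Gbp7) have larger technical error than bright ones.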
